A study of Mus musculus with 10 samples.

Results

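The globin and erythroid genes described here were 8 listed genes: the embryonic globins Hba-x, Hbb-y and Hbb-bh1, the adult alpha globin Hba-a1, and Hemgn, Epb4.2 (the older symbol of Epb42), Epor and Tfrc. They were found by symbol among 13578 gene rows. Values could be read for 7 of the 8, and Hba-a1 was not analysed here. One further globin row, Beta-s, was described beside them and is not one of the 8. Beta-s is an older symbol of Hbb-bs, an adult beta globin gene. Hbb-bs has a near-identical neighbour, Hbb-bt, so its reads could belong to either gene.

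The values came from total RNA sequencing of gonadal soma, with 1 female mouse embryo of embryonic day 13.5 per sample. Every embryo was Gulo-/- on a C57BL/6 background and so depended on dietary vitamin C through the mother. In 5 embryos vitamin C had been withdrawn in the early part of gestation, and in the other 5 it had been supplied at a physiological level. The cells were the Oct4- fraction of a sort, and the library was made from 2 ng of total RNA per embryo. Numbers 1 to 5 below name the embryos of each group and do not pair them. The labels do not say which embryos were litter mates, and p-values reflect the variation among these 10 samples alone.

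Expression was deposited as regularised log2 (rlog) values, on which a difference of 1 is a doubling and weakly expressed genes are drawn towards their mean. The values carry no correction for gene length, so levels were compared between embryos and not between genes. Read depth is unknown, and no counting interval is given. All 12 gonadal soma markers on a list had a row, with a list mean of 11.84 to 11.93 in withdrawn embryos and 11.81 to 11.94 in supplied embryos. Of 10 germ cell genes 4 had a row, with list means of 5.40 to 5.54 in withdrawn embryos and 5.38 to 5.59 in supplied embryos.

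Red blood cells of the mouse embryo arise in successive waves. Primitive erythroid cells form in the yolk sac, enter the circulation as nucleated cells and carry embryonic globins, whereas definitive erythroid cells, made mainly in the fetal liver, carry adult globins. As primitive cells mature, Hbb-bh1 RNA gives way to Hbb-y RNA. GATA1 and KLF1 are the central transcription factors of this lineage, and their known binding letters in globin promoters are GATA motifs and CACCC boxes.

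None of the 7 genes was called as different between withdrawn and supplied embryos. The embryonic globins, Hemgn and Epb4.2 tended to run together from embryo to embryo in both groups, largely through 2 embryos. Epor and Tfrc had no correlation with another of the 7 genes at an adjusted permutation p under 0.05. Hba-x, Hbb-y and Hbb-bh1 were highest in withdrawn embryo 5 and supplied embryo 3. The list means of red cell membrane, heme and enzyme genes were highest in the same 2 embryos, though not every gene on these lists was. Beta-s was ordered differently, and it was highest in supplied embryo 4. It ran with Tfrc and against the difference Hbb-bh1 minus Hbb-y, taken relative to the median embryo. Both relations were added after the values had been seen. In limma across all rows, 0 of 7 genes had an adjusted p under 0.05, where 0.0221% of all 13578 rows did. At an unadjusted p under 0.05 the count was 0 of 7, against 5.3% of all rows. The 2 groups overlapped for all 7 genes, whereas they did not overlap for 0.81% of all rows.

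The promoters of Hba-x, Hbb-y and Beta-s, and of Hemgn and Epb4.2, are printed to show the letters they share. Among the listed genes that are not globins, Hemgn and Epb4.2 had the highest mean r to the embryonic globins (0.69 and 0.72). Some red cell genes that are not listed ran more closely with them, such as Rhag and Add2 (0.82 each). Each is the 250 bases before the gene's start from RefSeq on GRCm38.p6, read in the direction of the gene. Hba-x lies at chr11:32276350-32276599 (+), Hbb-y at chr7:103853208-103853457 (-), Beta-s at chr7:103827929-103828178 (-), Hemgn at chr4:46404184-46404433 (-) and Epb4.2 at chr2:121036878-121037127 (-). Capitals mark the GATA motif GATAA, which reads TTATC where the match is on the other strand. They also mark the CACCC box, which on the other strand reads GGGTG. The third motif, the CCAAT box, reads on the other strand as ATTGG.
Hba-x: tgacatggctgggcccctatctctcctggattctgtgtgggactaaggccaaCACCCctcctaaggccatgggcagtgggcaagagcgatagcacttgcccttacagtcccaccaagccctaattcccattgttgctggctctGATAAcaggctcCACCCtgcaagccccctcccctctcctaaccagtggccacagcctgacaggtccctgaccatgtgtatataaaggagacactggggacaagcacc
Hbb-y: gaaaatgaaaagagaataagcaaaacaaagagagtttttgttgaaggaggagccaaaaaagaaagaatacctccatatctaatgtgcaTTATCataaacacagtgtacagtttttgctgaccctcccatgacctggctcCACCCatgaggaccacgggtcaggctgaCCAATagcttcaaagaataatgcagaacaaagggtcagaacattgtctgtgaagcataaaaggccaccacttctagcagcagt
Beta-s: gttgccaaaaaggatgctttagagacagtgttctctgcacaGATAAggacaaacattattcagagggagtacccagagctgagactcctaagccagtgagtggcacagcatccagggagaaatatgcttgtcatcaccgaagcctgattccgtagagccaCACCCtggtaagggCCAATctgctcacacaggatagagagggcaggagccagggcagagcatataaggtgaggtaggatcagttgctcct
Hemgn: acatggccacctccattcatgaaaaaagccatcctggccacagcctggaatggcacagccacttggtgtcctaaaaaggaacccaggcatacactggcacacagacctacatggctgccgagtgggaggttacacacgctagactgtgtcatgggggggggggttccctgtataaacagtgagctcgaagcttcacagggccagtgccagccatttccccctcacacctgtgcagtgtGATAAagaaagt
Epb4.2: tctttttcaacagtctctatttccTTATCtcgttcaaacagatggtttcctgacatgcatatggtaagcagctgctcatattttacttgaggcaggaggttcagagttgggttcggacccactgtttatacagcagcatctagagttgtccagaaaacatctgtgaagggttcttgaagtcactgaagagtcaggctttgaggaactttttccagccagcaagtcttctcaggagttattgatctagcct

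All 5 of these windows held GATAA once, and the matches did not overlap with another motif. The match began 107 bases before the start in Hba-x, 162 in Hbb-y, 209 in Beta-s, 12 in Hemgn and 226 in Epb4.2. CACCC was found in the 3 globin windows, as 2 copies in Hba-x and 1 copy each in Hbb-y and Beta-s, and in neither Hemgn nor Epb4.2. CCAAT was found in Hbb-y, 83 bases before the start, and in Beta-s, 76 bases before it. The Epor window at chr9:21963577-21963826 (-) held GATAA once and CACCC in 2 copies. Neither of the 2 Tfrc windows, at chr16:32608646-32608895 (+) and chr16:32608872-32609121 (+), held GATAA, and both held CACCC. Of 32851 promoter windows of the same length, 22.6% held the GATA motif, 52.0% the CACCC box and 33.8% the CCAAT box, so the last 2 are common letters. Of the 8 listed genes 7 matched a promoter, and Hbb-bh1 did not.

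Hba-x encodes zeta globin, the embryonic alpha-type chain. Its rlog values were 13.37, 13.25, 12.64, 13.23 and 14.02 in withdrawn embryos 1 to 5, against 12.66, 13.30, 14.25, 13.17 and 13.10 in supplied embryos 1 to 5. One embryo of each group stood high, one of each stood low, and the groups overlapped almost entirely. The means were 13.30 ± 0.49 in withdrawn embryos and 13.30 ± 0.59 in supplied embryos (SD, n = 5 each). The difference, withdrawn minus supplied, was 0.0042 ± 0.240 (SE), with a 95% interval of -0.50 to 0.51. Its limma adjusted p was 0.999, and the exact two-sided permutation p was 0.992. The interval spans folds from 0.706 to 1.43, and changes within that span could not be told from 0 with these embryos.

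Hbb-y encodes epsilon-y globin, the embryonic beta-type chain of maturing primitive cells. It had 14.79, 14.56, 14.28, 14.10 and 15.39 in withdrawn embryos 1 to 5, against 14.00, 14.33, 15.37, 14.86 and 14.59 in supplied embryos 1 to 5. The same 2 embryos, withdrawn 5 and supplied 3, were highest, and their values nearly coincided. The difference was -0.0027 ± 0.228 (SE; 95% interval -0.48 to 0.48), with a limma adjusted p of 0.999 and an exact permutation p of 0.984.

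Hbb-bh1 encodes the beta-h1 chain, the beta-type globin of early primitive cells. Its values were 8.69, 8.40, 8.28, 8.87 and 8.97 in withdrawn embryos 1 to 5, against 8.22, 8.78, 9.16, 8.46 and 8.41 in supplied embryos 1 to 5. Withdrawn embryo 5 and supplied embryo 3 again led, but here withdrawn embryo 4, the lowest of its group for Hbb-y, came close to them. The difference was 0.038 ± 0.151 (SE; 95% interval -0.28 to 0.36; limma adjusted p 0.999; exact permutation p 0.857).

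These globins were among the most variable rows of the table, although the groups did not separate. From the lowest to the highest embryo Hba-x spanned 3.05-fold, Hbb-y 2.62-fold and Hbb-bh1 1.92-fold on the rlog scale. Ranked by SD over the 10 embryos, Hba-x and Hbb-y each stood at the 99.9th percentile of all rows and Hbb-bh1 at the 99.7th. The mean of the 3 globins was 12.28, 12.07, 11.73, 12.07 and 12.79 in withdrawn embryos 1 to 5, against 11.63, 12.14, 12.93, 12.16 and 12.03 in supplied embryos 1 to 5. It spanned 1.30 in all, and 0.66 once withdrawn embryo 5 and supplied embryo 3 were left out. In bulk RNA, fewer red cells and less globin RNA per red cell cannot be told apart.

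**Figure D1:**
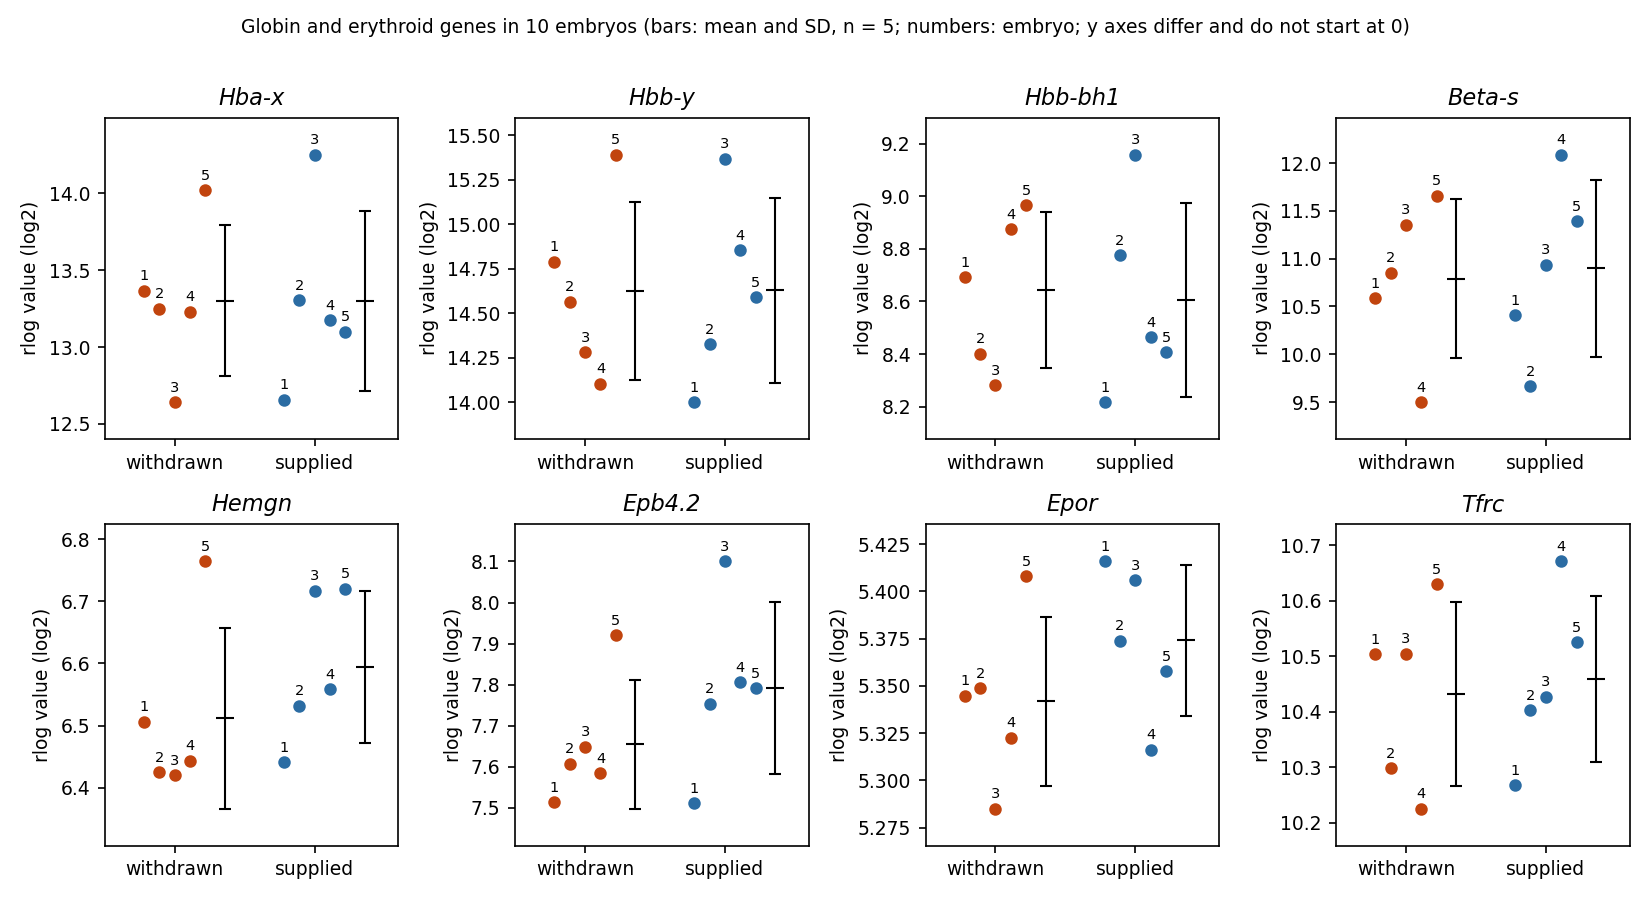
Deposited rlog values (log2, y axis) of the 7 genes and of Beta-s in withdrawn (left, orange) and supplied (right, blue) embryos. Each point is 1 embryo with its number, and bars give the mean and SD of 5 embryos. The groups overlap in every panel. Withdrawn embryo 5 and supplied embryo 3 are highest for Hba-x, Hbb-y, Hbb-bh1 and Epb4.2, whereas supplied embryo 4 is highest for Beta-s and Tfrc.

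Hemgn encodes hemogen, a nuclear protein of erythroid progenitors and a GATA1 target. It had 6.51, 6.43, 6.42, 6.44 and 6.76 in withdrawn embryos 1 to 5, against 6.44, 6.53, 6.72, 6.56 and 6.72 in supplied embryos 1 to 5. Withdrawn embryo 5 stood well above the other 4 of its group, while supplied embryo 5 matched supplied embryo 3. The difference was -0.082 ± 0.0653 (SE; 95% interval -0.22 to 0.056; limma adjusted p 0.978; exact permutation p 0.325).

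Epb4.2 encodes a membrane protein that ties the band 3 anion exchanger to the red cell skeleton. It had 7.51, 7.61, 7.65, 7.58 and 7.92 in withdrawn embryos 1 to 5, against 7.51, 7.75, 8.10, 7.81 and 7.79 in supplied embryos 1 to 5. Withdrawn embryo 5 lay above every supplied embryo except embryo 3, and withdrawn embryo 1 and supplied embryo 1 were lowest. The difference was the largest in size of the 7, at -0.14 ± 0.0884 (SE; 95% interval -0.32 to 0.049), with a limma adjusted p of 0.963 and an exact permutation p of 0.270.

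Epor encodes the erythropoietin receptor, which keeps erythroid progenitors alive. Its values lay between 5.29 and 5.41 in withdrawn embryos and between 5.32 and 5.42 in supplied embryos. The row was weakly expressed, with its mean at percentile 5.72 and its SD at percentile 9.66 of all rows, a range in which rlog shrinkage is strong. The difference was -0.032 ± 0.0273 (SE; 95% interval -0.090 to 0.025; limma adjusted p 0.983; exact permutation p 0.246). A change in this gene would be understated on this scale, so its narrow interval does not bound the change in RNA.

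Tfrc encodes transferrin receptor 1, the route of iron into erythroid cells, which dividing cells of other types also make. It had 10.50, 10.30, 10.50, 10.23 and 10.63 in withdrawn embryos 1 to 5, against 10.27, 10.40, 10.43, 10.67 and 10.53 in supplied embryos 1 to 5. The highest embryos were withdrawn 5 and supplied 4, and supplied embryo 3, high in the globins, was in the middle. The difference was -0.027 ± 0.0781 (SE; 95% interval -0.19 to 0.14; limma adjusted p 0.998; exact permutation p 0.810).

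Beta-s gave 10.59, 10.85, 11.36, 9.50 and 11.66 in withdrawn embryos 1 to 5, against 10.41, 9.66, 10.94, 12.09 and 11.39 in supplied embryos 1 to 5. Supplied embryo 4 was highest and withdrawn embryo 4 lowest, a span of 6.01-fold, and the SD ranked at the 99.96th percentile of all rows. Among the 8 genes shown it varied most, and its high embryos were only partly those of the embryonic globins. The difference was -0.11 ± 0.387 (SE; 95% interval -0.92 to 0.71; limma adjusted p 0.998; exact permutation p 0.841), so that this interval spans folds from 0.527 to 1.64.

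Co-variation was read over 29 relations: the 21 pairs among the 7 genes, the 7 pairs of each with Beta-s, and Beta-s against the difference of Hbb-bh1 and Hbb-y. The last 8 were added after the values had been seen, and their p-values do not cover that choice. p-values come from permutation of the 10 embryos and were adjusted over all 29. Of the 21 pairs, 20 had a positive Pearson r, and 6 passed an adjusted p of 0.05. By Spearman rank correlation 1 pair passed.

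The embryonic globins ran together. Hba-x and Hbb-bh1 had r = 0.90 (permutation p 8e-05, adjusted 0.00203) and rho = 0.84 (permutation p 0.00379, adjusted 0.0366). Hba-x and Hbb-y had r = 0.87 (permutation p 0.0024, adjusted 0.0174) and rho = 0.68 (permutation p 0.0347, adjusted 0.112). The 2 beta-type chains were less closely tied, at r = 0.62 (permutation p 0.0584, adjusted 0.141) and rho = 0.60 (permutation p 0.0741, adjusted 0.165).

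Hemgn and Epb4.2 ran with each other and with Hbb-y. Their own r was 0.83 (permutation p 0.0024, adjusted 0.0174; rho 0.73, permutation p 0.0205, adjusted 0.0990). With Hbb-y, Hemgn had r = 0.79 (permutation p 0.00796, adjusted 0.0330; rho 0.76, permutation p 0.0148, adjusted 0.0860). Epb4.2 and Hbb-y had r = 0.78 (permutation p 0.00697, adjusted 0.0330; rho 0.77, permutation p 0.0122, adjusted 0.0860). With Hba-x, Epb4.2 had r = 0.77 (permutation p 0.00951, adjusted 0.0345; rho 0.43, permutation p 0.217, adjusted 0.349). Epor had no pair past the threshold, with r from -0.14 to 0.51 to the other 6 genes, and neither had Tfrc.

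Which pairs passed depended on the 2 high embryos. Without withdrawn embryo 5 and supplied embryo 3, chosen after the values had been seen, 0 of 21 pairs passed and 3 had an unadjusted exact permutation p under 0.05. Without the 2 embryos farthest from the median of each pair's first gene, the count was also 0. For pairs led by Hba-x, Hbb-y, Hbb-bh1 or Epb4.2 these were the same 2 embryos, so this is largely the same result. Without the 2 high embryos r was 0.77 for Hba-x and Hbb-bh1 (unadjusted exact permutation p 0.0273), which is closer to its value over 10 embryos than the other globin pairs were. It was 0.56 for Hba-x and Hbb-y, 0.05 for Hbb-bh1 and Hbb-y, 0.48 for Hbb-y and Hemgn, 0.40 for Hbb-y and Epb4.2 and 0.18 for Hba-x and Epb4.2. Hemgn and Epb4.2 had r = 0.69 over the same embryos (unadjusted exact permutation p 0.0451), and 0.89 without the 2 farthest from the Hemgn median. Hbb-y and Tfrc went the other way, from r = 0.64 over 10 embryos to 0.76 without the 2 high embryos (unadjusted exact permutation p 0.0343). With 1 embryo left out, 1 pair passed without withdrawn embryo 5, 1 without supplied embryo 3, 3 without supplied embryo 4, and 4 to 8 without any other. With the group means subtracted 4 pairs passed.

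**Figure D2:**
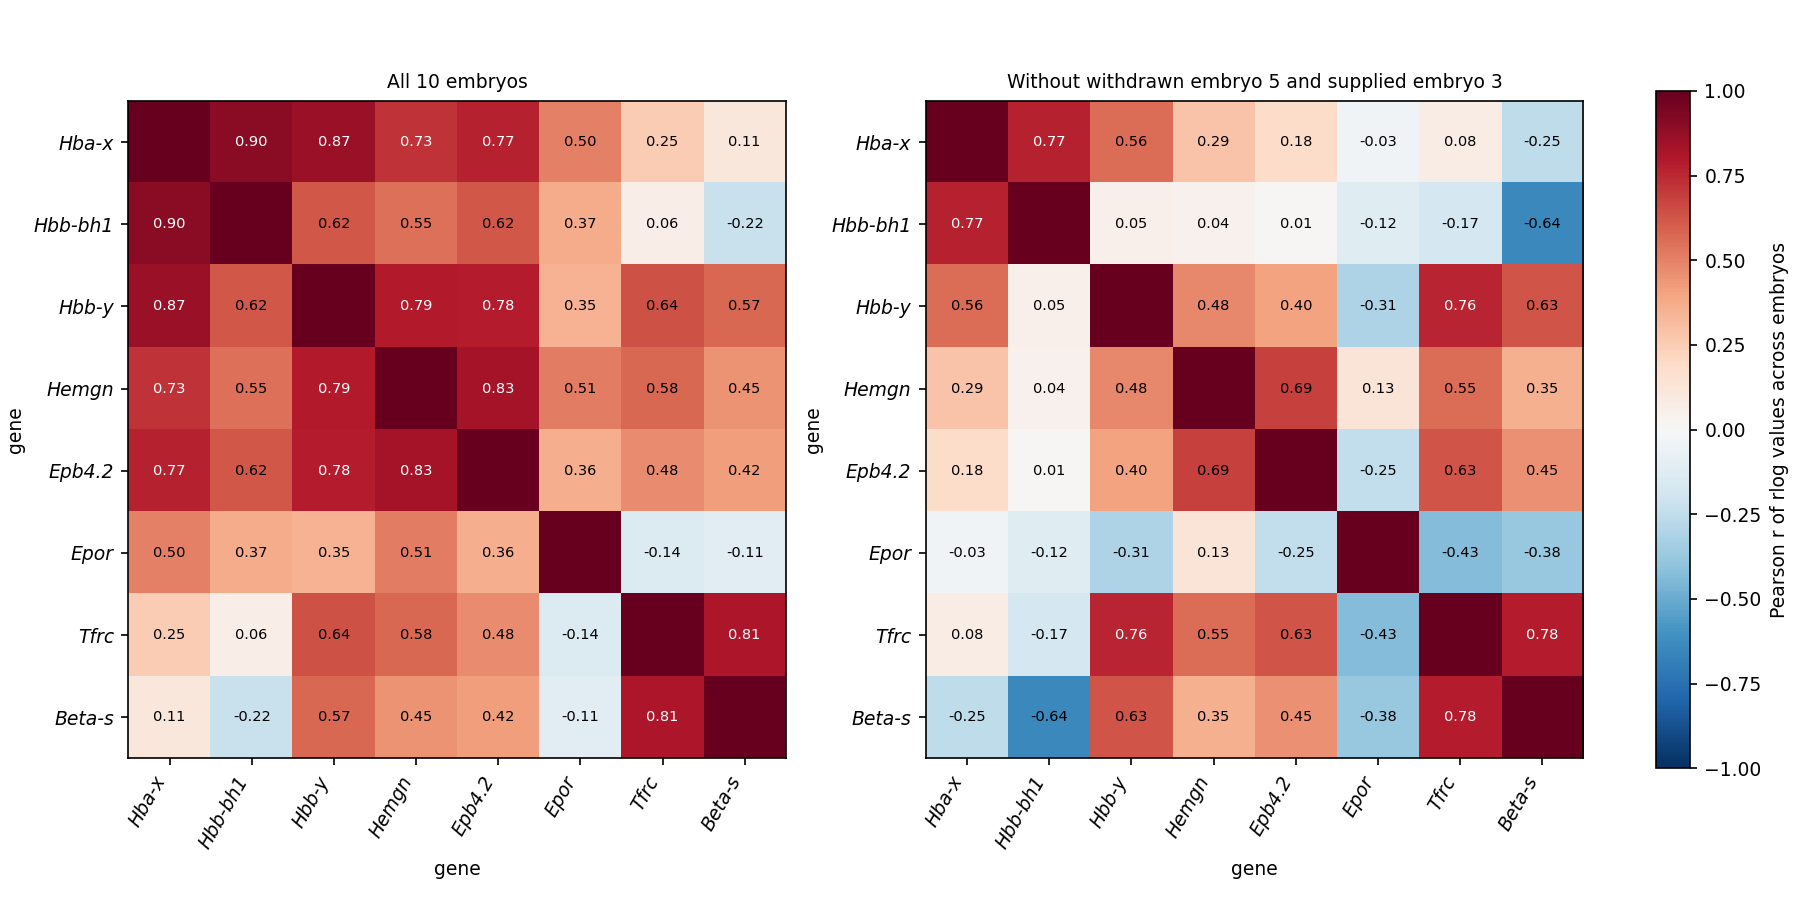
Pearson r of rlog values for each pair of the 7 genes and Beta-s (both axes are genes, colour is r), over all 10 embryos (left) and without withdrawn embryo 5 and supplied embryo 3 (right). The block of high r among the embryonic globins, Hemgn and Epb4.2 fades on the right: Hba-x and Hbb-y have 0.87 on the left and 0.56 on the right. Beta-s and Tfrc have r = 0.81 on the left and 0.78 on the right.

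Beta-s ran with Tfrc. Their r was 0.81 (permutation p 0.00514, adjusted 0.0298) and their rho 0.92 (permutation p 0.00059, adjusted 0.0171), with r = 0.82 within the withdrawn embryos and 0.80 within the supplied embryos. Without the 2 embryos of high embryonic globin r was 0.78, and it was 0.85 without the 2 embryos farthest from the Beta-s median. Over those 8 embryos the adjusted p no longer passed, at 0.249 and 0.147 by exact permutation. With 1 embryo left out it was 0.0643 without withdrawn embryo 4, 0.0777 without withdrawn embryo 5, 0.0547 without supplied embryo 3 and 0.0904 without supplied embryo 4. Tfrc also had r = 0.64 to Hbb-y (permutation p 0.0506, adjusted 0.141), but 0.25 to Hba-x and 0.06 to Hbb-bh1. Beta-s itself had r = 0.57 to Hbb-y, 0.11 to Hba-x and -0.22 to Hbb-bh1, none past the threshold.

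The mix of the embryonic beta-type chains was read as Hbb-bh1 minus Hbb-y, relative to the median embryo, which compares embryos and not the amounts of the 2 chains. It was 0.033, -0.033, 0.13, 0.90 and -0.30 in withdrawn embryos 1 to 5, against 0.35, 0.58, -0.080, -0.26 and -0.054 in supplied embryos 1 to 5. Withdrawn embryo 4 and supplied embryo 2, which had the least Beta-s, had the largest relative share of Hbb-bh1, and withdrawn embryo 5 and supplied embryo 4, which had the most Beta-s, had the smallest. Across the 10 embryos the mix and Beta-s had r = -0.91 (permutation p 0.00014, adjusted 0.00203) and rho = -0.89 (permutation p 0.0012, adjusted 0.0174). Within the withdrawn embryos r was -0.90 and within the supplied embryos -0.96. Without the 2 embryos of high embryonic globin r was -0.91 (adjusted exact permutation p 0.0388). Without withdrawn embryo 4 and supplied embryo 2, the farthest from the Beta-s median, r was -0.77 and the adjusted exact permutation p 0.198, so the call rested on those 2. Leaving out 1 embryo at a time gave r from -0.94 to -0.88, with every adjusted p under 0.05. The mix itself did not differ between the groups beyond the spread (difference 0.041, exact permutation p 0.865).

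**Figure D3:**
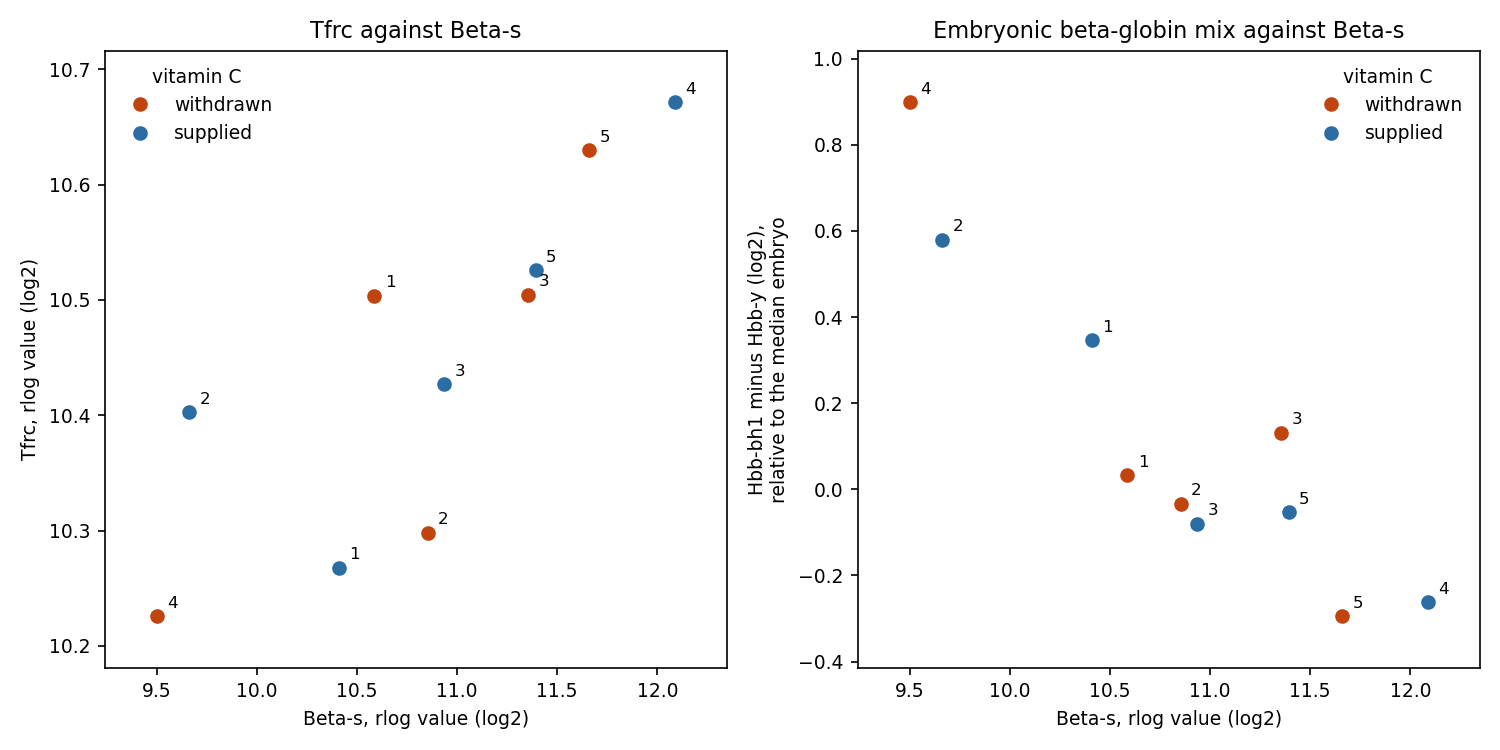
Tfrc (left, y axis, rlog) and the difference of Hbb-bh1 and Hbb-y relative to the median embryo (right, y axis, log2) against Beta-s (x axis, rlog), 1 point per embryo with its number, withdrawn in orange and supplied in blue. Tfrc is higher and the difference lower where Beta-s is higher, with r = 0.81 and -0.91, and embryos of both groups lie along each slope.

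Immediate early genes respond within minutes to stimulation. They moved closely with Beta-s only once withdrawn embryo 5 and supplied embryo 3, chosen after the values had been seen, were left out. Over all 10 embryos 3 of 10 such genes had r of at least 0.5 to Beta-s, where 9.52% of all rows did, and the list median was 0.47. Over the 8 embryos left without withdrawn embryo 5 and supplied embryo 3, all 10 did, where 16.3% of all rows did, with r from 0.68 for Dusp1 to 0.81 for Junb and a median of 0.76. Over 10 embryos their median r to the 3 embryonic globins was -0.46. The list mean was 9.85, 10.59, 11.27, 9.96 and 9.54 in withdrawn embryos 1 to 5, against 9.92, 9.91, 9.81, 11.25 and 10.15 in supplied embryos 1 to 5. Supplied embryo 4 was thus high in both, while withdrawn embryo 5, second highest in Beta-s, had the lowest list mean of all. The part of these genes in the result was not tested.

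The wider erythroid programme was read from 6 lists holding 100 symbols, of which 91 had a row and were tested. Not one of the 91 was called (3 at an unadjusted p under 0.05), 37 lay above 0 and 54 below, and the median difference was -0.018. Over all 13578 rows 3 were called and 719 had an unadjusted p under 0.05, and the median difference was 0.00021, with 6813 above 0 and 6765 below.

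Among 18 erythroid transcription factors 0 were called and the median difference was 0.0093. The lowest differences were -0.096 for Nfe2, a partner of the globin locus control region, and -0.043 for Lmo2, a bridging subunit of the GATA1 complex. The highest were 0.13 for Bcl11a, a repressor in globin switching, and 0.089 for Cbfa2t3, a corepressor. Bcl11a ranged from 9.62 to 10.08 in withdrawn embryos and from 9.49 to 9.89 in supplied embryos, and the groups overlapped. Klf1, which activates adult beta globin, lay with the embryonic globins, at a mean r of 0.76 to the 3 of them, whereas Gata1 had 0.49.

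In heme synthesis 0 of 16 genes were called, with a median of -0.030. Alas2, the erythroid enzyme of the first step, had the lowest difference at -0.17 ± 0.222 (SE; limma adjusted p 0.991), followed by Abcb10, a mitochondrial transporter, at -0.11. Alas2 was 10.42, 10.66, 10.57, 10.32 and 11.33 in withdrawn embryos 1 to 5, against 10.10, 10.33, 11.38, 11.35 and 10.98 in supplied embryos 1 to 5. It was thus high in the embryos of high embryonic globin and also in supplied embryo 4, the embryo of highest Beta-s. Abcb6 and Tmem14c, which move porphyrins, had the highest differences, at 0.040 each.

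Of 17 red cell membrane genes 0 were called, with a median of -0.020. The lowest were Spnb1, the older symbol of the erythroid spectrin gene Sptb, at -0.16, and Kel, a blood group protein, at -0.15. The highest were Gypc, a glycophorin that other cells make too, at 0.059, and Tmod1, an actin capping protein, at 0.043. Of 9 red cell enzymes and chaperones 0 were called, with a median of -0.053. Car2, a carbonic anhydrase, had -0.11 and Trim10, an erythroid RING protein, had -0.11, while Blvrb, biliverdin reductase B, had -0.0024 and Xpo7, a nuclear exporter, had 0.0047.

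Iron genes gave the smallest p-values of the 6 lists, with 0 of 16 called and 2 at an unadjusted p under 0.05. Trf encodes transferrin, the carrier that Tfrc takes up. It was 7.46, 7.44, 7.38, 7.33 and 7.52 in withdrawn embryos 1 to 5, against 7.71, 7.83, 7.78, 7.47 and 7.69 in supplied embryos 1 to 5. Supplied embryo 4 alone lay within the withdrawn range. The difference was -0.27 ± 0.0602 (SE; limma adjusted p 0.269; exact permutation p 0.0159). Without supplied embryo 4 it was -0.33 and the limma adjusted p 0.0199, so 1 embryo decided whether it passed, and over the other settings the adjusted p ran from 0.151 to 0.832.

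Slc40a1 encodes ferroportin, the iron exporter. It was 10.10, 9.77, 9.83, 9.78 and 9.85 in withdrawn embryos 1 to 5, against 9.67, 9.70, 9.73, 9.74 and 9.75 in supplied embryos 1 to 5. Every withdrawn embryo was above every supplied one, though narrowly apart from withdrawn embryo 1. The difference was 0.15 ± 0.0572 (SE; limma adjusted p 0.928), and the exact permutation p was 0.00794, the smallest this design allows. Groups that do not overlap were seen in 0.81% of all rows. Fth1, ferritin heavy chain, had -0.11, and Pcbp2, an iron chaperone and RNA-binding protein, had 0.063.

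Among 15 genes of erythropoietin signalling, downstream of Epor, 0 were called. Socs2, a feedback inhibitor, had the highest difference at 0.12 ± 0.0464 (SE; limma adjusted p 0.928; exact permutation p 0.0397), and Pik3r1, a kinase subunit, had 0.090. Socs2 lay between 7.37 and 7.51 in withdrawn embryos and between 7.22 and 7.44 in supplied embryos. The lowest were Ptpn6, a phosphatase of the pathway, at -0.11 and Kit, the stem cell factor receptor, at -0.097.

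The 4 lists of red cell genes proper (transcription factors, heme, membrane and enzymes, 60 genes tested) shared the embryo pattern of the embryonic globins. A mean r of at least 0.5 to the 3 globins was found for 40 of 60 genes (66.7%), against 6.73% of all rows. Among membrane genes it was 14 of 17, among enzymes and chaperones 8 of 9, among heme genes 9 of 16 and among transcription factors 9 of 18. Iron genes had 4 of 16 and erythropoietin signalling genes 2 of 15, with a median r of -0.022 in the last, so that over all 6 lists the count was 46 of 91 (50.5%). Rhag (0.82), the ammonia channel of the Rh complex, and Add2 (0.82), the erythroid adducin, were near the top. Gypc (-0.26) and Gata2 (-0.33), a factor of progenitors and of other tissues, were below 0. None of the 10 endothelial and none of the 12 gonadal soma genes reached 0.5.

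Both high embryos lay above all 8 others for 28 of the 60 genes (46.7%), among them Slc4a1, the band 3 anion exchanger, Spna1, the erythroid alpha spectrin, Klf1 and Car2. This held for 2.89% of all rows. The 2 embryos were picked for their high embryonic globins, so Hba-x, Hbb-y and Hbb-bh1 meet it by that choice; of the other 4 listed genes Epb4.2 met it. Slc4a1 had 11.89 in withdrawn embryo 5 and 11.80 in supplied embryo 3, and 10.51 to 11.35 in the 8 others. Once the 2 were left out, 3 of the 60 genes (5%) had a mean r of at least 0.5, near the 3.18% of all rows. The median r was then 0.39 for enzymes and chaperones, 0.30 for membrane genes, 0.17 for heme genes and 0.039 for transcription factors, against 0.00023 for all rows. The shared pattern was thus weaker without the 2 embryos. The medians of the 4 lists were above that of all rows, only slightly for transcription factors, and these differences were not tested. For Beta-s, r of at least 0.5 was found for 16 of the 60 genes (26.7%), against 9.52% of all rows, and over the 8 embryos for 17 (28.3%), against 16.3%. Genes of one cell type share cells and libraries, so these shares are given as a description.

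**Figure D4:**
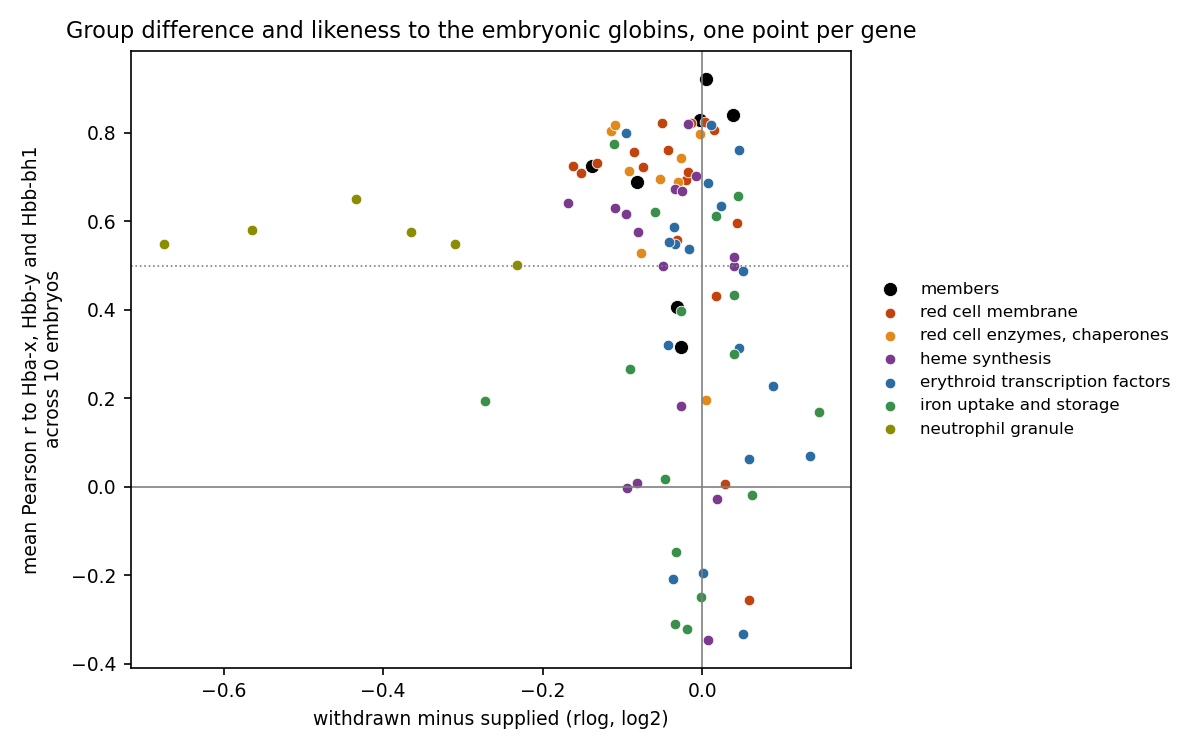
Each point is 1 gene: its difference between withdrawn and supplied embryos on the rlog (log2) scale (x axis, positive where higher in withdrawn embryos) and its mean Pearson r to Hba-x, Hbb-y and Hbb-bh1 over 10 embryos (y axis; for these 3 it counts the gene itself), with a dotted line at 0.5. The 7 genes are black, and colours show the lists. Red cell genes gather above 0.5 and close to a difference of 0, while the 6 neutrophil granule genes lie between -0.68 and -0.23 on the x axis.

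Some markers of other blood cells moved with the embryonic globins over the 10 embryos. Of 8 neutrophil granule genes 6 were tested, and all 6 had a mean r of at least 0.5 to the 3 globins, against 6.73% of all rows. Without the 2 high embryos their median was -0.18. The list mean ran from 6.75 to 7.55 in withdrawn embryos and from 6.90 to 8.15 in supplied embryos, highest in withdrawn embryo 5 and supplied embryo 3 of each group. In these 6 genes 0 were called and 5 had an unadjusted p under 0.05, against 5.3% of all rows. All 6 were lower in withdrawn embryos, with a median difference of -0.40. Of 11 macrophage genes 6 reached 0.5, and without the 2 high embryos the median of the 11 was -0.059. The macrophage list means were 7.58 to 7.84 in withdrawn embryos and 7.58 to 7.71 in supplied embryos. Of 10 megakaryocyte genes 3 were tested and 1 reached 0.5, and the list mean lay between 6.56 and 6.91 in withdrawn embryos and between 6.60 and 6.93 in supplied embryos. The part of these cells in the globin pattern was not tested.

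The 6 rows most like the embryonic globins, by mean r over 10 embryos among all rows other than the listed genes, were Hsd3b6 (0.89), 1110019D14Rik (0.89), Treml2 (0.87), Slfn14-ps (0.86), Nudt4 (0.85) and Rbm38 (0.84). Hsd3b6, a hydroxysteroid dehydrogenase, had r = 0.98 to Hba-x. It was 9.23, 9.35, 8.91, 9.15 and 9.76 in withdrawn embryos 1 to 5, against 8.85, 9.23, 9.93, 9.10 and 9.13 in supplied embryos 1 to 5. Withdrawn embryo 5 and supplied embryo 3 were highest in each of the 6 rows, and withdrawn minus supplied lay between -0.088 and 0.031. Nudt4, a hydrolase of inositol pyrophosphates, was 12.92 in withdrawn embryo 5 and 13.00 in supplied embryo 3. Their r to Beta-s was lower, from -0.0043 for Treml2 to 0.38 for Nudt4. The 6 were chosen by r to the embryonic globins, so this is partly built in.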

How the data were processed

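The deposited table holds the authors' rlog values, which are normalised and on a log2 scale, for 13578 rows and 10 embryos, 5 withdrawn and 5 supplied. Tools listed in the submitters' processing notes are DESeq2 1.20.1, TopHat2 2.1.1 and Trim Galore 0.4.0, and the genome build is mm9. The annotation and the use of strand in counting are not given in the sources used here. rlog shrinks weakly expressed rows, which understates their changes, and keeps no read depth. Values ran from 4.04 to 21.2, sample medians from 9.12 to 9.14, and 0 columns were left unused. None of the embryos had identical values.

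The members, the gene lists and the tests were chosen with earlier results of these data known. All rows were fitted with limma 3.58.1 in R 4.3.3 (variance trend, no covariate), withdrawn minus supplied, with Benjamini-Hochberg adjustment over all rows at 0.05. Single genes also had an exact two-sided permutation test of the means over 252 orders (smallest p 0.00794). Pearson and Spearman correlations used 100000 permutations, exact orders for 8 or 9 embryos and 14400 orders within groups (Python 3.11.15, NumPy 2.4.6, SciPy 1.17.1). Of 28 planned pairs 21 could be computed, since Hba-a1 was not analysed here, and 8 relations with Beta-s made 29. The fit was tested on simulated data.

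Rows were matched by symbol and, through the RefSeq gene table, by older symbol (Epb4.2, Beta-s, Spna1, Spnb1, Epb4.1, Epb4.9 and Emr1). Promoters are RefSeq sequences on GRCm38.p6, another build than the table, and serve only as sequence. In that annotation 0 genes overlapped any of 8 looked up. All 8 listed genes were to be named, with the 2 highest and 2 lowest differences of each pathway list, any gene called, all globin rows and the 6 rows most like the embryonic globins. Other genes named with a correlation were chosen after their values were seen, and some genes are not reported here. Other settings were a mean minimum of 7, no variance trend, robust variance, median centring, quantile normalization, the replicate number as a block, averaging samples that share a title number, and leaving out each embryo. Leaving out withdrawn embryo 5 and supplied embryo 3 together was added after seeing the data.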

Additional observations from a re-analysis of the deposited data

Results flagged for a closer look

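Of 50 groups of 5 embryos examined for a sample far from the others, 6 had one, where chance gives about 1 in 20. In withdrawn embryo 5, Hemgn was 6.76, against 6.51 in the next of its group. In the same embryo the heme synthesis list mean was 9.62 (next 9.42), the red cell membrane list mean 9.05 (next 8.73) and the mean of red cell enzymes and chaperones 9.50 (next 9.17). These lists share cells, so the 4 are not separate observations. In withdrawn embryo 1 the endothelial list mean was low at 8.97, with the next at 9.07. In supplied embryo 4 the immediate early list mean was high at 11.25, with the next at 10.15.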

How the results depend on the processing

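The 7 genes remained uncalled under the 18 other limma settings, where Hemgn and Epor dropped out at a mean minimum of 7. Their differences were small enough to change sign. With each embryo left out in turn, Hba-x ran from -0.18 to 0.24, Hbb-y from -0.19 to 0.18, Hbb-bh1 from -0.058 to 0.18, Tfrc from -0.076 to 0.027 and Beta-s from -0.42 to 0.22, whereas Hemgn, Epb4.2 and Epor stayed below 0. Quantile normalization gave -0.028 for Hba-x, and averaging samples that share a title number gave 0.10 for Hbb-y, 0.21 for Hba-x, 0.20 for Hbb-bh1 and -0.33 for Beta-s. The cause was not tested.

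Over all rows 3 genes were called. The count was 1 with a mean minimum of 7, no variance trend, quantile normalization or averaging, 5 with robust variance, 0 without withdrawn embryo 5 and supplied embryo 3, and 0 to 4 with 1 embryo left out. The replicate block gave 2 and no listed gene. Deviations of same-numbered embryos from their group means had r of 0.172, -0.181, -0.364, -0.0908 and -0.103. These values cannot settle whether same-numbered samples were handled together, and the main fit used no pairs. Of the 91 listed erythroid genes 0 to 1 was called with 1 embryo left out, the 1 being Trf.

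Member pairs past the threshold numbered 6, and 1 to 8 with 1 embryo left out. Without the 2 farthest embryos, or without withdrawn embryo 5 and supplied embryo 3, it was 0, with fewer embryos. Except in pairs led by Hemgn or Epor, the 2 farthest were those same embryos. The span of the embryonic globin mean was 0.66 without those 2 and 1.17 to 1.30 with 1 embryo left out. Without the 2 high embryos, correlations of Epor turned negative, at -0.033 with Hba-x, -0.31 with Hbb-y, -0.12 with Hbb-bh1 and -0.25 with Epb4.2. So did that of Hbb-bh1 with Tfrc, at -0.17. In these pairs the 2 farthest embryos were the 2 high embryos, so both settings gave 1 and the same result. Epor and Tfrc gave 0.17 and Beta-s and Hbb-bh1 0.089 without the 2 farthest, and Beta-s and Hba-x gave -0.25 without the 2 high embryos. With 1 embryo left out r ran from -0.15 to 0.25 for Hbb-bh1 and Tfrc, -0.38 to 0.073 for Epor and Tfrc, -0.35 to 0.078 for Beta-s and Epor and -0.074 to 0.24 for Beta-s and Hba-x. Unknown depth limits all weakly expressed rows.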

Other observations

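Some erythroid genes had a high r to Beta-s and a low mean r to the embryonic globins over 8 embryos. Withdrawn embryo 5 and supplied embryo 3 were left out. Such a mean can hide opposite signs. Beta-s itself had r = 0.63 to Hbb-y, -0.25 to Hba-x and -0.64 to Hbb-bh1 over these 8 embryos. Tal1, a transcription factor of blood progenitors, had r = 0.92 to Beta-s and a mean r of 0.041 to the 3 embryonic globins. Bpgm, the enzyme of 2,3-bisphosphoglycerate, had 0.92 and 0.11. Alas2 had 0.83 and 0.25, and Fech, the last enzyme of heme synthesis, had 0.80 and 0.094. Over all 10 embryos Tal1, Bpgm, Alas2 and Fech had a mean r of 0.55, 0.71, 0.64 and 0.58 to the embryonic globins. Among the same 8 embryos all 10 immediate early genes had r of 0.68 to 0.81 to Beta-s, and Emcn, an endothelial gene, had 0.81, so the order of embryos by Beta-s was not particular to red cell genes. These genes were chosen after their values were seen, and no test was made.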
